A study of Homo sapiens with 24 samples.

Results

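The genes described here are 8 transcription factors that maintain the identity of hepatocytes. They were chosen by name and not by a measured value of their own, but with earlier results of these data known. They are HNF4A, FOXA1, FOXA2, FOXA3, CEBPA, ONECUT1, ONECUT2 and PROX1. Each was matched by its NCBI gene identifier to 1 row of the deposited count table, so that 8 of the 12009 gene identifiers in the table belong to this set and 8 of 8 factors had enough reads to be tested. The cells were HepG2, an established human liver cancer line that keeps part of the hepatocyte programme. They carried Cas9 and 1 guide RNA from a lentiviral vector and had been selected with puromycin. The guide was sgCtrl, which cuts at the AAVS1 safe-harbour locus, or one of a pair against KEAP1, named sgKeap1-1 and sgKeap1-2. Cells with each guide then were transfected with non-targeting siRNA (siNC) or with pooled siRNA for both TFEB and TFE3 (sitfeb/sitfe3), and RNA was taken 72 h after transfection. The 6 combinations had 4 libraries each, 24 in all. The sources used here mention no single-cell cloning, so the libraries may average over edited and unedited alleles.

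Hepatocyte identity rests on a small network of DNA-binding proteins that bind one another's promoters as well as the genes of plasma proteins, lipoproteins and liver enzymes. The forkhead factors FOXA1, FOXA2 and FOXA3 open chromatin at liver enhancers, the nuclear receptor HNF4A and the leucine zipper protein CEBPA drive most genes of the mature cell, and the cut-homeodomain proteins ONECUT1 (HNF6) and ONECUT2 and the homeodomain protein PROX1 act from the time the liver forms. KEAP1 marks the transcription factor NRF2 for degradation, and TFEB and TFE3 drive lysosomal genes, so the design asks how liver factors stand when NRF2 is released and when the lysosomal regulators are reduced.

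Across the 4 comparisons of a Keap1 guide with sgCtrl, averaged, 6 of the 8 factors were lower and 0 were higher at an adjusted p under 0.05 (limma-voom, Benjamini-Hochberg over 11152 genes), where 15.6% of all genes tested were lower. HNF4A, FOXA1, FOXA3, CEBPA, ONECUT1 and PROX1 fell, whereas FOXA2 and ONECUT2 did not pass. The median log2 fold change over the 8 factors was -0.36, and over all genes it was -0.00. The falls were partial: HNF4A changed by -27.8%, FOXA1 by -42.4%, FOXA3 by -25.0%, CEBPA by -18.8%, ONECUT1 by -54.1% and PROX1 by -16.6%. Knockdown of TFEB and TFE3 moved 0 of the 8 past the threshold in sgCtrl, sgKeap1-1 or sgKeap1-2 cells, where 0.0179%, 0.0897% and 0.359% of all genes passed, so that a count of 0 among 8 genes is no result about these factors. In bulk RNA, fewer cells that express a factor and less of its RNA per cell cannot be told apart.

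**Figure D1:**
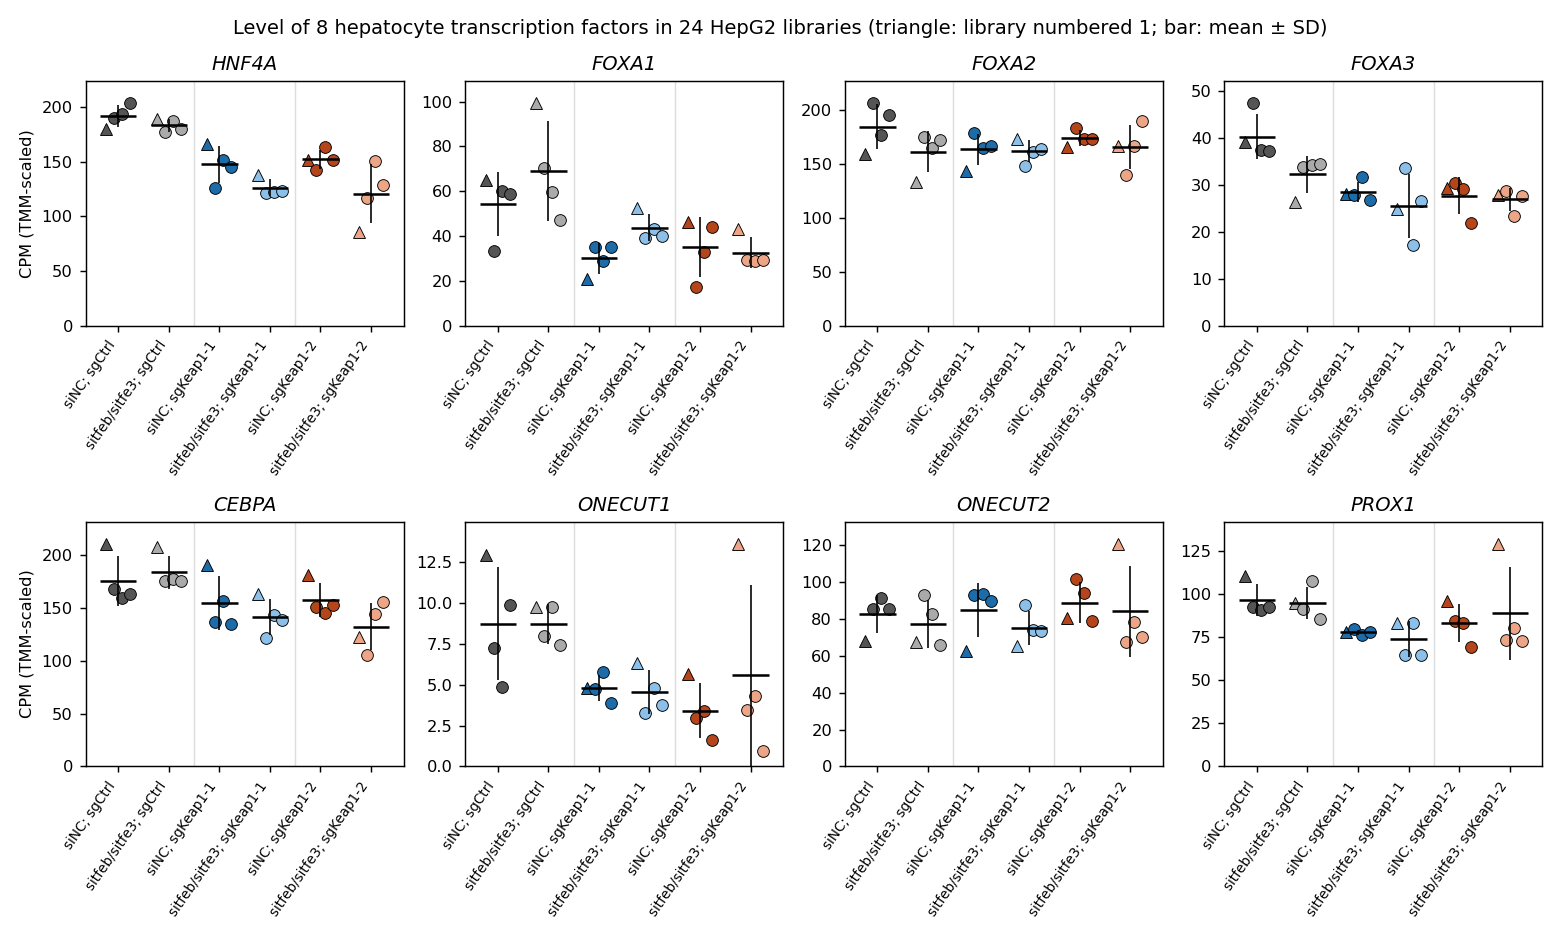
Level of each factor in CPM (its reads relative to the library total after TMM scaling; vertical axes start at 0) in the 24 libraries, by guide and siRNA; points are libraries, triangles are the libraries numbered 1, and bars give the mean and SD of 4. HNF4A is lower in all 16 libraries with a Keap1 guide than in any of the 8 sgCtrl libraries, and ONECUT2 shows no such separation.

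All 24 libraries held between 3527000 and 4600951 assigned reads. Libraries of 1 group differed from one another by more than counting noise in all 36 pairs, so each was counted as a sample, but no source says that they came from separate cultures, and p-values then measure only the spread between these libraries. KEAP1 itself, read at its 3′ end, went from 84.9 ± 6.69 CPM (SD, n = 4) in siNC; sgCtrl to 53.8 ± 6.17 in siNC; sgKeap1-1 and 77.4 ± 3.89 in siNC; sgKeap1-2, and only the first guide passed (adjusted p = 1.02e-04 and 0.448, limma-voom). A 3′ read count does not report on the edited coding sequence, so the level with sgKeap1-2 does not check that label. The study itself showed immunoblots of cells with each guide, and reported that KEAP1 loss markedly raised NRF2 and glutathione. TFE3 was lower after sitfeb/sitfe3 in all 3 guide backgrounds (log2 fold changes of -1.57, -1.74 and -1.69) and TFEB in the sgKeap1-1 and sgKeap1-2 backgrounds (-2.15 and -1.67), with -1.96 and an adjusted p of 0.0858 in sgCtrl. All 18 listed hepatocyte markers, albumin and transthyretin among them, were present in the table.

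HNF4A, the nuclear receptor at the centre of the hepatocyte network, lies on the plus strand of chromosome 20 (GRCh37, chr20:42984339-43061485). Its level was 180, 190, 194 and 204 CPM in the siNC; sgCtrl libraries numbered 1 to 4. It was 166, 126, 152 and 145 CPM in siNC; sgKeap1-1 and 152, 142, 163 and 152 CPM in siNC; sgKeap1-2. All 8 libraries with a Keap1 guide were below all 4 controls. The share of all genes that separate in this way under a single siRNA was not counted, for this or any other factor. After sitfeb/sitfe3 the sgCtrl libraries stood at 189, 177, 188 and 180 CPM. The sgKeap1-1 libraries then stood at 138, 122, 123 and 123 CPM, and the sgKeap1-2 libraries at 86.0, 117, 151 and 129 CPM. Again the groups did not overlap, so that HNF4A was lower in 16 of 16 libraries with a Keap1 guide than in any of the 8 sgCtrl libraries. It was the only one of the 8 factors with that property, which 1.62% of all genes tested shared in the same direction.

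The log2 fold change of HNF4A was -0.47 (SE 0.0703, adjusted p = 7.86e-06, limma-voom) over the averaged comparison. For single guides it was -0.38 with sgKeap1-1 and -0.33 with sgKeap1-2 under siNC (adjusted p = 0.0297 and 0.0502), and -0.54 and -0.62 under sitfeb/sitfe3 (adjusted p = 0.00223 and 2.95e-04). The sgKeap1-1 call under siNC lay near the threshold and did not hold in every fit that left out 1 library, while its value stayed between -0.44 and -0.30. It was lost, at adjusted p of 0.0503 to 0.146, on leaving out replicate 2, 3 or 4 of siNC; sgCtrl, replicate 2, 3 or 4 of siNC; sgKeap1-1, or replicate 4 of sitfeb/sitfe3; sgKeap1-1. In the averaged comparison HNF4A passed in each of the 24 fits that left out 1 library and under each other setting tried. Ordered by mean level, the groups ran from siNC; sgCtrl (192 ± 9.72 CPM) and sitfeb/sitfe3; sgCtrl (183) through siNC; sgKeap1-2 (152) and siNC; sgKeap1-1 (148) to the sitfeb/sitfe3 groups of sgKeap1-1 (126) and sgKeap1-2 (121). The libraries of neighbouring groups in that order overlapped except at the step from sitfeb/sitfe3; sgCtrl to siNC; sgKeap1-2. The lowest place of sitfeb/sitfe3; sgKeap1-2 rests on its replicate 1, at 86.0 CPM. Without the libraries numbered 1 its mean was 132 CPM, and that of sitfeb/sitfe3; sgKeap1-1 was 123 CPM. Without that replicate alone, the sgKeap1-2 log2 fold change under sitfeb/sitfe3 was -0.48 and still passed.

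HNF4A is transcribed from a pair of promoters, the upstream one (P2) active in the fetal liver and pancreas and the downstream one (P1) in the adult liver. Reads at the shared 3′ end do not tell their transcripts apart. The 250 bases before each of both annotated starts are shown because factors of this same set bind HNF4A promoters. Letters in capitals mark matches, on either strand, to ATTGAT, the core of the ONECUT site, or to GTTAATNNT, part of the site of the liver homeodomain factor HNF1. The sequences are RefSeq's on GRCh38.p14, at chr20:44355449-44355698 and chr20:44400989-44401238, both on the plus strand.

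HNF4A, upstream start: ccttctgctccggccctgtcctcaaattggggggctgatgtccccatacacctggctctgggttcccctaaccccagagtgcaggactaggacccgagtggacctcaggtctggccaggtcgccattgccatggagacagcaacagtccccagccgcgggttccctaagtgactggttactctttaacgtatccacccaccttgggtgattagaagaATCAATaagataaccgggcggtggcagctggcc

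HNF4A, downstream start: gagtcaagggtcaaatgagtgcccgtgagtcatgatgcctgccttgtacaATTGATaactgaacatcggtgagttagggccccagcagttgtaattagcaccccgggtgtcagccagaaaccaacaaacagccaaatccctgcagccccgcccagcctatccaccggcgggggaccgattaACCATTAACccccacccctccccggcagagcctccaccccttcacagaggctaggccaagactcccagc

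The upstream window holds an ATTGAT match at position -33 from the start, and the downstream window holds one at position -200 and a GTTAATNNT match at position -69. ATTGAT occurred in 5.58% and GTTAATNNT in 2.16% of the 35116 RefSeq windows of the same length. A match describes letters and not a bound site. RefSeq windows were found for 6 of the 8 factors, 7 windows in all, and FOXA2 and PROX1 had none in the table used. The antioxidant response element core TGACNNNGC, the sequence to which NRF2 binds, was in 0 of the 7 windows and in 10.9% of all windows. With so few and such short windows, a count of 0 is no result about these factors.

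FOXA1, FOXA2 and FOXA3 bind nearly the same DNA sequence, and in the averaged comparison FOXA1 and FOXA3 passed and FOXA2 did not. FOXA1 lies on the minus strand of chromosome 14 (GRCh37, chr14:38058757-38065264). Under siNC it was at 65.0, 33.4, 60.0 and 58.7 CPM with sgCtrl, at 20.9, 35.3, 28.9 and 35.0 CPM with sgKeap1-1 and at 46.3, 17.2, 33.0 and 44.0 CPM with sgKeap1-2. Replicate 2 of the controls sat among the Keap1 libraries, so these groups overlapped. After sitfeb/sitfe3 the values were 99.2, 70.3, 59.8 and 47.1 CPM with sgCtrl, 52.5, 39.3, 43.3 and 39.8 CPM with sgKeap1-1 and 43.0, 29.3, 28.9 and 29.2 CPM with sgKeap1-2. There all 4 sgKeap1-2 libraries were below all 4 controls, and 1 sgKeap1-1 library was not.

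The averaged log2 fold change of FOXA1 was -0.80 (SE 0.153, adjusted p = 1.92e-04, limma-voom), called in every fit that left out 1 library. By guide it was -0.84 and -0.67 under siNC (adjusted p = 0.0414 and 0.0872) and -0.62 and -1.06 under sitfeb/sitfe3 (adjusted p = 0.114 and 0.00331). The sgKeap1-2 value under siNC was -0.37 without replicate 2 of that group. The sgKeap1-1 call under siNC was lost without replicate 1, 3 or 4 of siNC; sgCtrl and without any 1 of the 4 siNC; sgKeap1-1 libraries (adjusted p of 0.0501 to 0.121). FOXA1 shares 431 bases with TTC6 on the opposite strand, and since the strand setting of the counting is not stated, reads of the shared stretch cannot be told apart.

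FOXA2, the forkhead factor that starts liver formation together with FOXA1, lies on the minus strand of chromosome 20 (GRCh37, chr20:22561636-22566093). It stood at 185 ± 20.9 CPM in siNC; sgCtrl and at 164 and 174 CPM with sgKeap1-1 and sgKeap1-2, and at 162, 162 and 166 CPM for the same guides after sitfeb/sitfe3. Groups overlapped throughout. The averaged log2 fold change was -0.05, with a 95% interval of -0.19 to 0.08 (adjusted p = 0.593, limma-voom), which does not reach the value of FOXA1. LINC00261, a long non-coding RNA whose gene neighbours FOXA2 and which is known from differentiating endoderm, fell with both guides under siNC, from 209 ± 21.0 CPM to 109 ± 30.7 and 129 ± 16.4 CPM (log2 fold changes of -0.99 and -0.69, adjusted p = 9.28e-05 and 0.00299).

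FOXA3, the forkhead factor that joins the liver programme last and supports glucose output, lies on the plus strand of chromosome 19 (GRCh37, chr19:46367247-46377055). Its siNC; sgCtrl libraries were at 39.1, 47.4, 37.3 and 37.3 CPM. With sgKeap1-1 they were at 28.0, 27.8, 31.7 and 26.8 CPM and with sgKeap1-2 at 29.4, 30.4, 29.1 and 21.9 CPM, and neither set overlapped the controls. How many of all genes separate so was not counted. After sitfeb/sitfe3 the sgCtrl libraries were lower, at 26.3, 33.8, 34.3 and 34.4 CPM, and overlapped the sgKeap1-1 libraries (24.9, 33.6, 17.1 and 26.6 CPM) and those with sgKeap1-2 (27.8, 28.8, 23.4 and 27.6 CPM). FOXA3 was the only factor of the 8 to pass with both guides under siNC, at log2 fold changes of -0.49 and -0.55 (adjusted p = 0.0383 and 0.0154), where 3.72% of all genes were lower with both and 5.16% higher with both. Both comparisons share the siNC; sgCtrl libraries. The sgKeap1-1 call was lost without any 1 of the 8 libraries compared (adjusted p of 0.0512 to 0.136), and the sgKeap1-2 call without replicate 2 of siNC; sgCtrl (0.0657) or replicate 4 of siNC; sgKeap1-2 (0.0876). Under sitfeb/sitfe3 the differences were -0.36 and -0.26 and did not pass (adjusted p = 0.186 and 0.273), and the averaged difference was -0.42 (SE 0.0949, adjusted p = 0.00125).

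Ratios of read counts within 1 library need no scaling between libraries. They were formed after the unequal values of these genes had been seen, so they are given as a description, without a test. The mean log2 ratio of FOXA1 to FOXA2 was -1.54 ± 0.62 (SD, n = 8) in the sgCtrl libraries and -2.28 ± 0.44 (n = 16) in those with a Keap1 guide, a difference of -0.74. For FOXA3 to FOXA2 the means were -2.26 ± 0.13 and -2.62 ± 0.27, a difference of -0.36, and for FOXA1 to FOXA3 they were 0.72 ± 0.67 and 0.34 ± 0.55, a difference of -0.38. Without the 6 libraries numbered 1 the 3 differences were -0.59, -0.36 and -0.23.

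**Figure D2:**
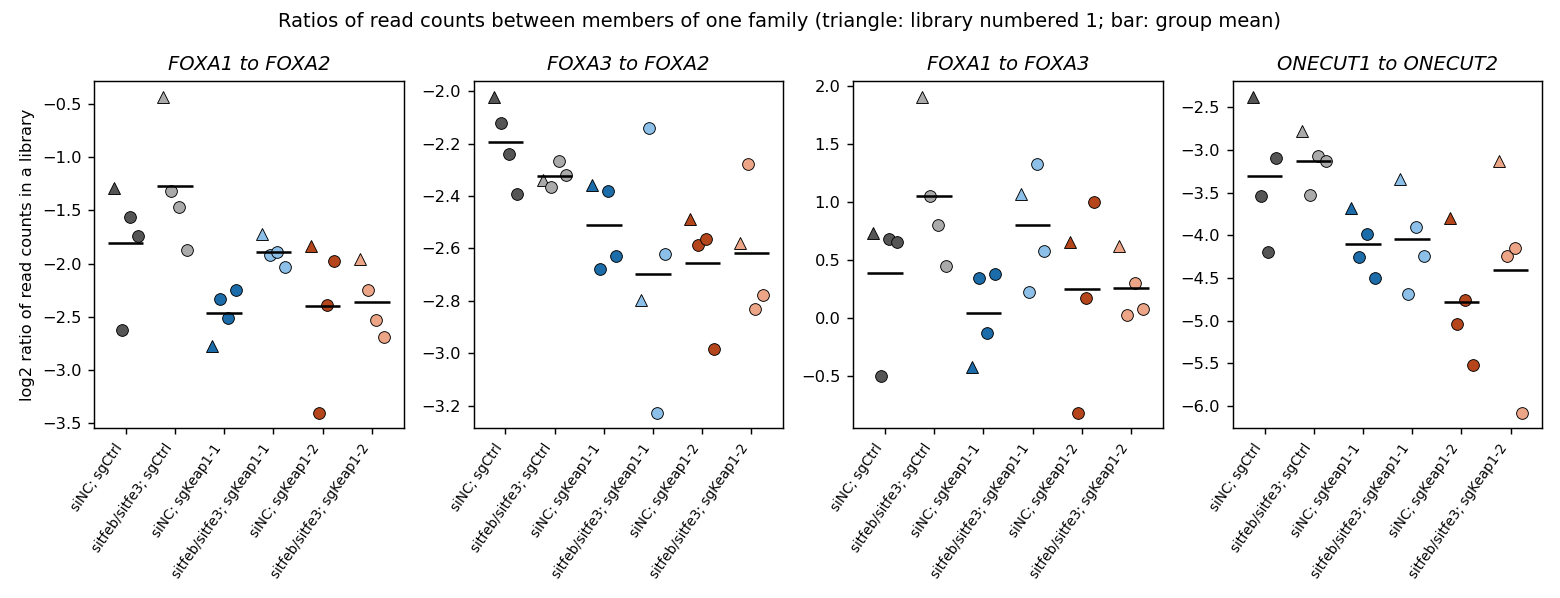
The log2 ratio of read counts of 2 members of a family in each of the 24 libraries; triangles are libraries numbered 1 and bars are group means. FOXA1 to FOXA2 and ONECUT1 to ONECUT2 are lower with either Keap1 guide, by -0.74 and -1.12 on average, with single libraries that overlap the controls.

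CEBPA, the leucine zipper factor that holds hepatocytes in their differentiated state, lies on the minus strand of chromosome 19 (GRCh37, chr19:33790840-33793440). Under siNC it was at 211, 168, 159 and 163 CPM with sgCtrl, at 190, 137, 156 and 135 CPM with sgKeap1-1 and at 181, 151, 145 and 153 CPM with sgKeap1-2. Library 1 was the highest of its 4 in each of these groups, and the groups overlapped. After sitfeb/sitfe3 the sgCtrl libraries were at 207, 175, 177 and 176 CPM, above all of the sgKeap1-1 libraries (163, 122, 143 and 139 CPM) and all of the sgKeap1-2 libraries (123, 106, 144 and 156 CPM). Against the sgCtrl library of the same number and siRNA, CEBPA and HNF4A were each lower in 16 of 16 pairs. FOXA1, FOXA3 and PROX1 were lower in 15 of 16, ONECUT1 in 14, FOXA2 in 11 and ONECUT2 in 7. Pairs share controls, and the share of all genes with such counts was not taken. The log2 fold changes of CEBPA were -0.19 and -0.15 under siNC (adjusted p = 0.420 and 0.497) and -0.38 and -0.48 under sitfeb/sitfe3 (adjusted p = 0.0591 and 0.00790), and the averaged value was -0.30 (SE 0.0785, adjusted p = 0.00412, limma-voom). Whether the siRNA changed the size of the fall was tested as an interaction, and it did not pass for CEBPA (-0.26, 95% interval -0.58 to 0.06) nor for HNF4A (-0.22, -0.51 to 0.07). On the opposite strand of CEBPA lie 2 annotated long non-coding RNAs whose reads cannot be told apart from its own.

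ONECUT1, the cut-homeodomain factor that with HNF4A and FOXA proteins occupies liver enhancers, lies on the minus strand of chromosome 15 (GRCh37, chr15:53047250-53083275). It was the least covered of the 8, with 4 to 51 reads per library. Under siNC the sgCtrl libraries held 51, 29, 17 and 42 reads, which are 13.0, 7.23, 4.88 and 9.91 CPM. Those with sgKeap1-1 stood at 4.79, 4.72, 5.78 and 3.86 CPM and those with sgKeap1-2 at 5.65, 2.96, 3.39 and 1.61 CPM. Replicate 3 of the controls overlapped both. After sitfeb/sitfe3 the values were 9.74, 7.97, 9.73 and 7.43 CPM with sgCtrl and 6.35, 3.29, 4.82 and 3.76 CPM with sgKeap1-1, without overlap. With sgKeap1-2 they were 13.6, 3.44, 4.32 and 0.926 CPM, so that 1 library was the highest of all 24 and another the lowest.

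The averaged log2 fold change of ONECUT1 was -1.12 (SE 0.249, adjusted p = 8.82e-04, limma-voom), the largest fall among the 8 and the one with the widest interval (-1.64 to -0.61). By guide it was -0.80 and -1.43 under siNC (adjusted p = 0.246 and 0.0373) and -0.98 and -1.29 under sitfeb/sitfe3 (adjusted p = 0.146 and 0.0351). The siNC call with sgKeap1-2 was lost without replicate 1 or 4 of siNC; sgCtrl or replicate 2, 3 or 4 of siNC; sgKeap1-2 (adjusted p of 0.0774 to 0.145). The sitfeb/sitfe3 call was lost without replicate 1 or 3 of sitfeb/sitfe3; sgCtrl or replicate 2 or 4 of sitfeb/sitfe3; sgKeap1-2 (0.0679 to 0.239). Its value ran from -1.79 without replicate 1 of sitfeb/sitfe3; sgKeap1-2 to -0.65 without replicate 4 of that group, and count models gave a smaller value for it, -0.70 with edgeR (adjusted p = 0.283) and -0.69 with DESeq2 (0.282). The averaged call held in all 24 fits that left out 1 library.

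Among the 6 factors with a promoter window, ONECUT1 was the only one whose window held CACGTG, the palindrome to which TFEB and TFE3 bind. That is 1 of 7 windows, beside 6.34% of all windows, and 1 match among so few is no result about ONECUT1. Its 250 bases before the start, RefSeq on GRCh38.p14, chr15:52790337-52790586, minus strand, are shown with that match, at position -209, in capitals.

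ONECUT1: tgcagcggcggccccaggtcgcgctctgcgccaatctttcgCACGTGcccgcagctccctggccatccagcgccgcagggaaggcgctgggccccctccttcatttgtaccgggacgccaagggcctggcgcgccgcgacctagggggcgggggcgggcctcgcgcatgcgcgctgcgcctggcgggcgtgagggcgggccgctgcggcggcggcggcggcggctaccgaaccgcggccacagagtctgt

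Neither the knockdown of TFEB and TFE3 in sgCtrl cells (log2 fold change of 0.05, 95% interval -0.67 to 0.77) nor its average over the guides (0.04, -0.50 to 0.58) passed for ONECUT1. These intervals are wide enough to hold a change of either sign.

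ONECUT2, its paralogue, lies on the plus strand of chromosome 18 (GRCh37, chr18:55102606-55158530) and had 237 to 417 reads per library. Group means ran from 75.0 to 88.9 CPM, and all groups overlapped. The averaged log2 fold change was 0.05 (95% interval -0.16 to 0.25, adjusted p = 0.778, limma-voom), and it turned to -0.01 without the 6 libraries numbered 1. The log2 ratio of ONECUT1 to ONECUT2, formed after these values had been seen and given without a test, averaged -3.21 ± 0.55 (SD, n = 8) with sgCtrl and -4.33 ± 0.77 (n = 16) with a Keap1 guide. The difference was -1.12, and -1.19 without the libraries numbered 1.

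PROX1, a homeodomain factor that binds HNF4A as a co-regulator and is needed for hepatoblasts to spread, lies on the plus strand of chromosome 1 (GRCh37, chr1:214156524-214214853). It stood at 96.5 ± 9.21 CPM in siNC; sgCtrl, 77.8 ± 1.35 in siNC; sgKeap1-1 and 83.2 ± 10.9 in siNC; sgKeap1-2. After sitfeb/sitfe3 the means were 94.9, 73.8 and 88.9 CPM, the last of which contains 1 library at 129 CPM and 3 between 73.0 and 80.2. With sgKeap1-1 all 4 libraries were below all 4 controls under either siRNA, and no single-guide comparison passed. The share of all genes that separate in this way between 4 and 4 libraries was not counted, here or for the other factors. The averaged log2 fold change was -0.26 (SE 0.0869, adjusted p = 0.0223, limma-voom). That call was lost without replicate 1 of siNC; sgCtrl (adjusted p = 0.0616) or replicate 3 of sitfeb/sitfe3; sgCtrl (0.0654), and without the 6 libraries numbered 1 the value was -0.31 (adjusted p = 8.11e-04). PROX1 shares 5328 bases with PROX1-AS1 on the opposite strand, and HNF4A shares 22961 with HNF4A-AS1, so the same limit on strand applies to both.

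Guide by guide, 3 of the 8 factors were lower with sgKeap1-1 under siNC, HNF4A, FOXA1 and FOXA3, against 4.91% of all genes. With sgKeap1-2 under siNC there were 2, FOXA3 and ONECUT1, against 7.14%. Under sitfeb/sitfe3 there was 1 with sgKeap1-1, HNF4A, against 4.81%, and there were 4 with sgKeap1-2, HNF4A, FOXA1, CEBPA and ONECUT1, against 9.59%. No factor was higher in any of the 4. The medians of the 8 log2 fold changes were -0.34, -0.28, -0.38 and -0.37 in the same order, and those of all genes lay between -0.02 and 0.01. Each pair of guides shares its sgCtrl libraries. Between the guides themselves 0 of the 8 factors passed, where 0.117% of all genes did, with 0 factors and 951 genes at an unadjusted p under 0.05 and 0 factors called by edgeR or DESeq2. The differences, sgKeap1-2 minus sgKeap1-1, ran from -0.47 for ONECUT1, whose 95% interval ran from -1.19 to 0.26, to 0.16 for PROX1. KEAP1 was higher with sgKeap1-2 than with sgKeap1-1 (log2 fold change of 0.50, adjusted p = 0.00145).

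**Figure D3:**
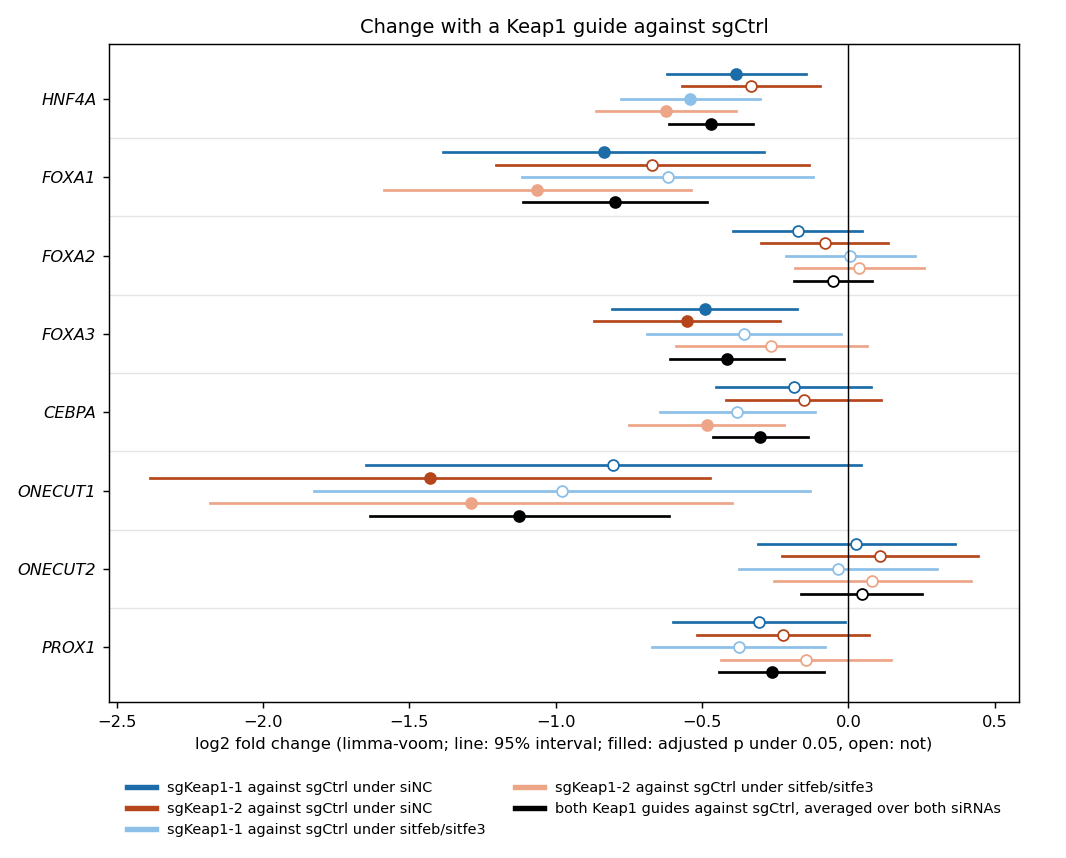
Log2 fold change of each factor with a Keap1 guide against sgCtrl (horizontal axis), by guide and siRNA and averaged; lines are 95% intervals of limma-voom and filled points passed at an adjusted p under 0.05. Averaged values (black) lie between -1.12 for ONECUT1 and -0.26 for PROX1 among the 6 that passed, and those of FOXA2 and ONECUT2 lie near 0.

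The knockdown libraries show how the liver factors stood when TFEB and TFE3 were reduced. In sgCtrl, sgKeap1-1 and sgKeap1-2 cells 0 of the 8 factors passed, where 0.0179%, 0.0897% and 0.359% of all genes did (limma-voom), and averaged over the guides 0 passed where 2.33% did. At an unadjusted p under 0.05 the counts of factors were 1, 0, 1 and 1 of 8, beside 516, 901, 1169 and 1448 of the 11152 genes, and edgeR and DESeq2 also called 0. HNF4A came closest: its averaged log2 fold change was -0.21 (95% interval -0.35 to -0.07, adjusted p = 0.0966), and it passed without replicate 3 of sitfeb/sitfe3; sgKeap1-2 (-0.26, adjusted p = 0.0314). For FOXA1 the value was 0.28 (-0.03 to 0.59), positive in the sgCtrl and sgKeap1-1 backgrounds (0.34 and 0.56) and -0.06 with sgKeap1-2. The interaction of guide and siRNA passed for 0 of the 8 factors and 0% of all genes, with 0 and 349 of them at an unadjusted p under 0.05 and 0 calls by edgeR and DESeq2. The fall of the 6 factors with a Keap1 guide was not shown to depend on TFEB and TFE3, nor to be independent of them, since the intervals of the interaction reached from -1.04 to 1.00 for ONECUT1 and from -0.51 to 0.07 for HNF4A.

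**Figure D4:**
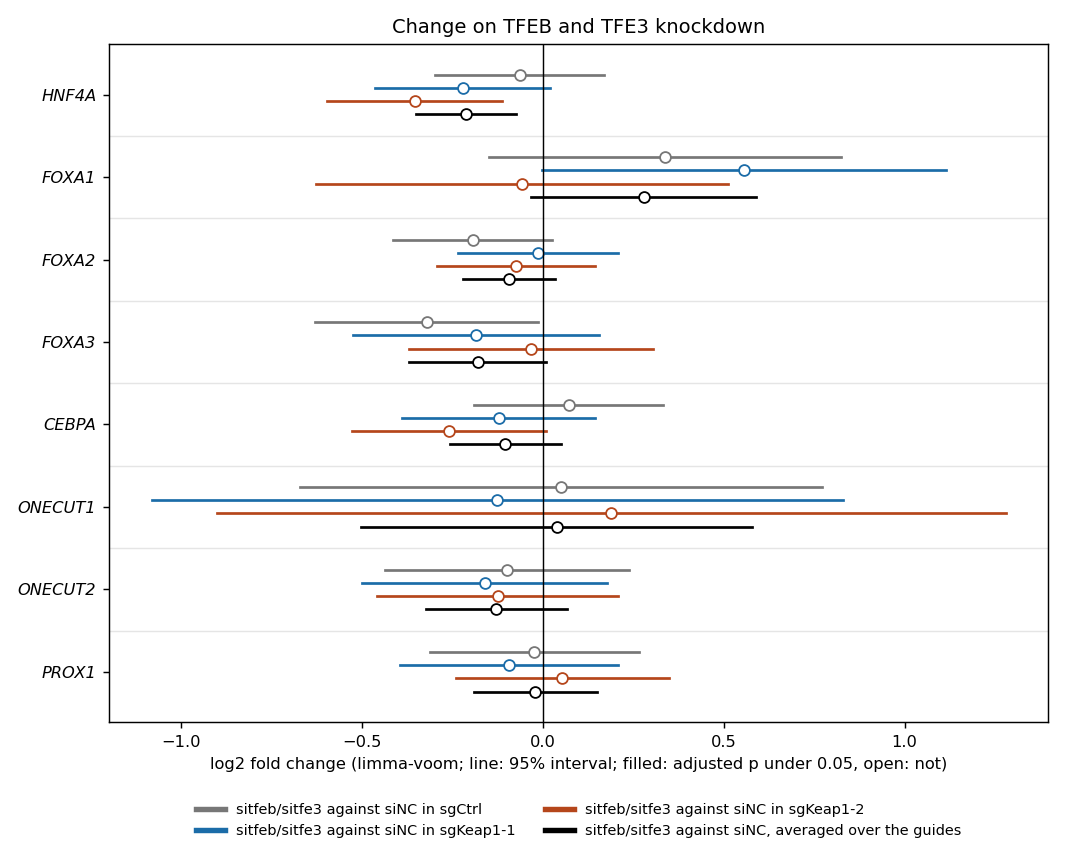
Log2 fold change of each factor on sitfeb/sitfe3 against siNC (horizontal axis) in cells with each guide and averaged; lines are 95% intervals of limma-voom and open points did not pass. No point is filled, and the averaged interval of HNF4A, from -0.35 to -0.07, lies below 0 before adjustment.

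Other liver-enriched factors were taken from a list of 55, of which 50 were in the table and 48 were tested. Of these, 7 were higher and 17 lower in the averaged comparison, where 15.2% of all genes were higher and 15.6% lower. Their median log2 fold change was -0.17, beside -0.36 for the 8 factors. With both guides under siNC 6 were lower and 1 higher, which is 12.5% and 2.08% of the 48 beside 3.72% and 5.16% of all genes. CREB3L3, a hepatic factor for lipid and fasting genes, fell the furthest (-1.30 and -1.02 under siNC, adjusted p = 0.00463 and 0.0138). The nuclear receptors NR2F2 (-0.62 and -0.85) and NR2F1 (-0.39 and -0.41), the zinc finger factor GATA4 (-0.56 and -0.57), the homeodomain factor HHEX that acts as the liver bud forms (-0.55 and -0.49) and the leucine zipper factor HLF (-0.42 and -0.44) were lower too. ZBTB20, which represses AFP in the adult liver, was higher (0.65 and 0.71). Of 16 listed co-regulators 1 was higher with both guides, which is 6.25% beside 5.16% of all genes, and 0 were lower. That gene was PPARGC1B, a coactivator of nuclear receptors (2.34 and 1.82).

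Genes that carry out hepatocyte functions, many of them bound by these factors in liver, were counted from a list of 106, of which 68 were tested. In the averaged comparison 38 were lower and 9 higher, where 15.6% of all genes were lower and 15.2% higher, and the median of the 68 was -0.41. With both guides under siNC 27.9% were lower and 13.2% higher, beside 3.72% and 5.16% of all genes. Plasma proteins gave 19 lower and 0 higher of 27, and lipoprotein genes 7 lower and 0 higher of 10, whereas drug metabolism gave 3 higher and 1 lower of 6 and amino acid and urea genes 4 higher and 3 lower of 10. Under siNC with sgKeap1-1 and sgKeap1-2, ALB, serum albumin, changed by -1.28 and -1.21, MTTP, which loads lipid onto apolipoprotein B, by -2.31 and -2.85, and VTN, vitronectin, by -1.32 and -1.51. The gluconeogenic enzyme PCK1 changed by -2.74 and -2.61 (adjusted p = 0.0137 and 0.0119, limma-voom). G6PC1, another, changed by -2.79 and -3.32, nearer the threshold despite the size of the change (adjusted p = 0.0494 and 0.0291). In the other direction, GCKR, the glucokinase regulator, changed by 1.90 and 1.95, the bile canaliculus pump ABCC2 by 1.13 and 1.27, and the tyrosine catabolism enzymes HPD by 0.90 and 0.89 and FAH by 0.68 and 0.71. SULT1A1 (0.84 and 1.28) and UGT2B7 (0.76 and 1.04), which conjugate drugs, were higher as well, but both have near-identical neighbours that can share reads. No list was tested as a set, and whether the factors' levels bear on these genes was not tested.

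**Figure D5:**
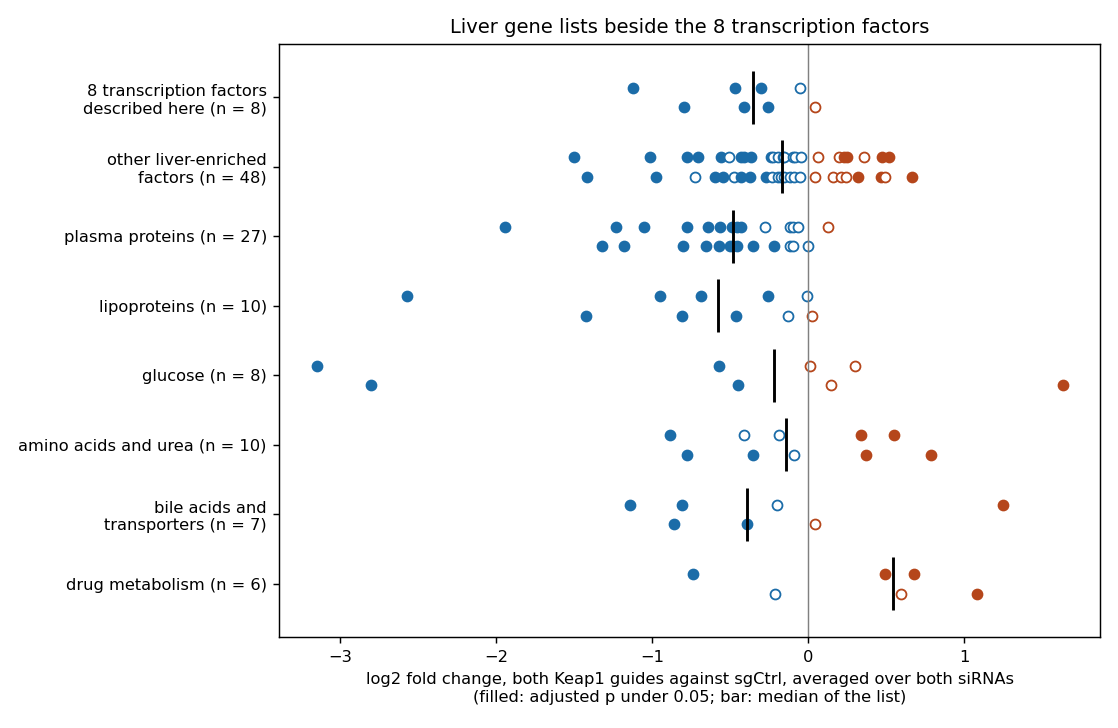
Log2 fold change of single genes with both Keap1 guides against sgCtrl, averaged over both siRNAs (horizontal axis), for the 8 factors, 48 other liver-enriched factors and 68 genes of hepatocyte function by theme; filled points passed and bars are medians. The medians are -0.36 for the 8 factors and -0.17 for the other factors, and drug metabolism, at 0.54, is the only theme above 0.

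Single markers of other cell states changed in both directions, and their part in the changes of the 8 factors was not tested. Of 13 tested genes of liver progenitors and bile ducts, 3 rose with both guides under siNC (SPP1, KRT19 and SOX4) and 3 fell (AFP, PROM1 and SOX9). That is 23.1% in each direction. Of all genes tested, 5.16% rose and 3.72% fell with both guides, and these shares apply to each list below. Summed levels are given for siNC; sgCtrl, siNC; sgKeap1-1 and siNC; sgKeap1-2, in that order. The 18 hepatocyte markers summed to 35598 to 46659, 28340 to 33875 and 28370 to 31051 CPM. The 13 progenitor and bile duct genes summed to 8119 to 12674, 5674 to 7885 and 6249 to 7612 CPM. The 4 intestinal genes summed to 216 to 257, 178 to 190 and 167 to 212 CPM. Each of these sums was lower with either guide, without overlap, and the sums of the mesenchymal and blood lists overlapped. How often gene sums separate in this way was not counted. A sum follows its most abundant genes and not its list as a whole. VIL1 had a median of 201 CPM over all libraries, beside 5.06 for ISX and 4.56 for TFF3. AFP, the most abundant progenitor gene, ran from 903 to 9100 CPM. The median log2 fold change of the progenitor and bile duct genes in the averaged comparison was 0.052. Of 4 tested intestinal genes ISX and TFF3 rose and VIL1 fell, of 5 tested mesenchymal genes 0 passed with both guides, and of 3 tested blood and endothelial genes LYZ fell. None of the 12 genes of pancreatic and neuroendocrine cells had enough reads to be tested, and the 2 in the table summed to at most 3.86 CPM in any library.

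Genes whose log2 CPM followed each factor most closely over the 24 libraries were looked for among 10538 genes, as a description without a test, since all points share the design and the sequencing. HNF4A was followed by DHRS2, LAMB2 and NADK2 (Pearson r of 0.898, 0.878 and 0.874). FOXA1 was followed by HMGB2, LRP11 and ARL6IP6 (0.880, 0.861 and 0.860), FOXA3 by FKBP7, FBLN1 and FNIP2 (0.792, 0.791 and 0.764) and CEBPA by DDC, CNP and TFCP2 (0.891, 0.863 and 0.832). ONECUT1 was followed by CETN2, MNS1 and CPAP (0.861, 0.843 and 0.839) and PROX1 by IQGAP2 and IPO5 (0.849 and 0.845). For FOXA2 the closest were LARP1B, MACO1 and GK (0.769, 0.708 and 0.703) and for ONECUT2 they were FNDC3B, UTRN and AGPS (0.808, 0.764 and 0.747). Among the 8 factors themselves ONECUT1 and PROX1 varied most alike (r = 0.789, and 0.844 after group means were removed, n = 24), and HNF4A and CEBPA came next (0.750, and 0.414 after group means were removed). The library sitfeb/sitfe3; sgKeap1-2 replicate 1 was the highest of all for ONECUT1, ONECUT2 and PROX1 and the lowest for HNF4A. Over all genes its counts differed from those of its group by a chi-squared of 30.9 to 35.0 per degree of freedom. The 36 pairs of libraries within a group ran from 3.59 to 35.0.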

How the data were processed

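HepG2 RNA was made into QuantSeq 3′ libraries, whose single-end reads lie near transcript ends. Per the study's methods and the submitters' processing notes, the authors trimmed reads with Cutadapt 1.16, aligned them with STAR 2.7.5b and counted them with featureCounts 1.6.3, and deposited raw counts per gene. The methods name hg19 (GRCh37) and the notes name hg38, and the strand setting is not given in the sources used here. The table has no coordinates, so gene positions come from GENCODE on GRCh37 and promoters from RefSeq. The table held 13446 rows. The 1414 rows without a gene identifier (1.35% to 2.57% of a library's reads) were left out, 43 rows that shared 20 identifiers were summed, and 160 identifiers with identical counts were kept as 78 features, which left 11927. No row held fewer than 15 reads in all libraries together.

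The main test, after the study's own, was limma-voom (R 4.3.3, with limma 3.58.1 and edgeR 4.0.16) on all 24 libraries with 1 mean per group, filterByExpr, TMM factors and Benjamini-Hochberg adjustment over 11152 genes at 0.05. Levels are CPM on TMM-scaled totals, and log2 CPM used a prior count of 2. The sources mention no molecular identifiers. Alternatives were edgeR's quasi-likelihood test, DESeq2 1.42.0, quality weights, other scalings and filters, a replicate block, and libraries left out. Named genes beyond the 8 were those of each list that passed with both Keap1 guides under siNC in 1 direction, at most 8 liver-enriched factors, 6 functional genes per direction and 3 of any other list per direction, and the 3 genes with the highest r for each factor at a mean of at least 10 reads per library. Some genes that meet this rule are not reported here. The members and lists were chosen with earlier results of these data known.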

Additional observations from a re-analysis of the deposited data

Results flagged for a closer look

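In each of the 48 sets of 4 libraries (8 factors in 6 groups) the highest and the lowest library were compared with the rest by Dixon's ratio, which flags about 1 set in 20 by chance. It picked out 8, of which 7 were libraries numbered 1, although these make up 25% of all libraries. High values were HNF4A at 138 CPM in sitfeb/sitfe3; sgKeap1-1 replicate 1, FOXA1 at 43.0 CPM in sitfeb/sitfe3; sgKeap1-2 replicate 1, CEBPA at 207 CPM in sitfeb/sitfe3; sgCtrl replicate 1, and PROX1 at 110 CPM in siNC; sgCtrl replicate 1 and 129 CPM in sitfeb/sitfe3; sgKeap1-2 replicate 1. Low values were FOXA3 at 26.3 CPM in sitfeb/sitfe3; sgCtrl replicate 1 and 21.9 CPM in siNC; sgKeap1-2 replicate 4, and ONECUT2 at 62.8 CPM in siNC; sgKeap1-1 replicate 1. The cause was not tested. Without all 6 libraries numbered 1 the averaged log2 fold changes were -0.46 for HNF4A, -0.70 for FOXA1, -0.48 for FOXA3, -0.28 for CEBPA, -1.23 for ONECUT1 and -0.31 for PROX1, and all 6 still passed.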

How the results depend on the processing

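ONECUT1 had the fewest reads, for which counting alone gives a CV of 16.8% to 27.5%, and its CV between libraries of 1 group was 13.7% to 99.5%. With 4 libraries a group many single-guide differences lay near the threshold. With sgKeap1-1 under siNC the count of factors called was 3, and it was 0 when only the groups compared were fitted and 1 without the 6 libraries numbered 1. With sgKeap1-2 under siNC it was 2, and 4 with quality weights and 4 without the libraries numbered 1. With sgKeap1-1 under sitfeb/sitfe3 it was 1, and 5 with quality weights, 5 with only the groups compared and 4 without the libraries numbered 1. Leaving out 1 library at a time gave 0 to 3, 0 to 3, 1 to 3 and 3 to 5 called in the 4 single-guide comparisons, 5 to 6 in the averaged one and 0 to 1 for the averaged knockdown. The cause was not tested. Comparisons that use all 6 groups had no fit on fewer groups. Of 2968 single-factor values under these alternatives, 44 lost a call, 34 gained one and 106 changed sign, 0 of them in a factor called in either fit, and 0 of 48 group levels moved by more than their SD on unscaled totals.

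Same-numbered libraries share a label prefix whose meaning is not stated. Their deviations from group means correlated at -0.0655 to 0.260, over 0.1 in 11 of 28 pairs, and 15 of 24 libraries were closest to one of their own number. The main test did not use the pairing, because not every pair correlated over 0.1. What libraries of 1 number share was not tested. With the replicate number as a block, 3 factors rather than 1 passed with sgKeap1-1 under sitfeb/sitfe3 (HNF4A, CEBPA and PROX1), 6 passed in the averaged comparison, HNF4A passed with sgKeap1-2 under siNC (adjusted p = 0.0387), ONECUT1 missed with sgKeap1-2 under sitfeb/sitfe3 (0.0592), and the interaction of ONECUT1 was 0.14.

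The log2 fold changes that changed sign under other settings were these. With quality weights and without the libraries numbered 1, in that order, FOXA2 was -0.027 and -0.12 with sgKeap1-1 under sitfeb/sitfe3, and ONECUT2 was -0.12 and -0.15 with sgKeap1-2 under sitfeb/sitfe3 and -0.017 and -0.013 in the averaged comparison. On knockdown, PROX1 was 0.034 and 0.043 in sgCtrl and -0.059 and -0.061 in sgKeap1-2, and ONECUT1 was -0.30 and -0.061 in sgKeap1-2 and -0.079 and -0.044 averaged. For sgKeap1-2 against sgKeap1-1, HNF4A was 0.073 and 0.11, CEBPA 0.031 and 0.032, FOXA3 -0.0028 and -0.016, and ONECUT2 -0.032 and -0.067, and the interaction of PROX1 was -0.12 and -0.15. Without the libraries numbered 1, FOXA2 was -0.058 with sgKeap1-2 under sitfeb/sitfe3. With upper-quartile factors FOXA2 was -0.0016 with sgKeap1-1 under sitfeb/sitfe3 and the interaction of PROX1 was -0.013. With edgeR and DESeq2, ONECUT1 was -0.011 and -0.0059 on knockdown in sgCtrl, and its interaction 0.30 and 0.31.

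Leaving out 1 library at a time, the values that crossed 0 ranged as follows. ONECUT2 ran from -0.063 to 0.17 with sgKeap1-1 under siNC, -0.11 to 0.059 with sgKeap1-1 and -0.092 to 0.17 with sgKeap1-2 under sitfeb/sitfe3, and -0.0002 to 0.093 averaged. FOXA2 ran from -0.080 to 0.046 and -0.052 to 0.12 with sgKeap1-1 and sgKeap1-2 under sitfeb/sitfe3, and on knockdown from -0.073 to 0.026 in sgKeap1-1 and -0.16 to 0.011 in sgKeap1-2. On knockdown ONECUT1 ran from -0.16 to 0.26, -0.28 to 0.010 and -0.31 to 0.83 with sgCtrl, sgKeap1-1 and sgKeap1-2 and -0.13 to 0.25 averaged. PROX1 then ran from -0.082 to 0.041 in sgCtrl, -0.12 to 0.13 in sgKeap1-2 and -0.078 to 0.0059 averaged, and FOXA1 and FOXA3 from -0.35 to 0.094 and -0.14 to 0.018 in sgKeap1-2. Between guides HNF4A ran from -0.087 to 0.056, FOXA1 from -0.22 to 0.0038, CEBPA from -0.090 to 0.015 and FOXA3 from -0.072 to 0.083. The interaction ran from -0.25 to 0.12 for FOXA1, -0.27 to 0.30 for ONECUT1, -0.091 to 0.065 for PROX1 and -0.14 to 0.049 for ONECUT2.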
